A study of Arabidopsis thaliana with 12 samples.

Results

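Core histones are the proteins around which nuclear DNA is wound: H2A, H2B, H3 and H4 together form the nucleosome, the basic unit of chromatin. The analysis covered 40 genes of *Arabidopsis thaliana* for these proteins, chosen by locus identifier. Of these, 37 had a probe set on the Affymetrix ATH1 array, 1 each, among 22746 probe sets that were not controls. The other 3, AT1G07660, AT3G46320 and AT5G59970, all H4 genes, had none under their own locus and so no value of their own here. Whether H4 probe sets shared by several transcripts also measure them was not examined. By class there were probe sets for 5 of 8 H4 genes, 5 H3.1 genes, 3 H3.3 genes and 11 H2B genes. The H2A family had probe sets for 4 canonical H2A, 2 H2A.X, 3 H2A.W and 3 H2A.Z genes and for HTA4, which was not placed in a class. H4, H3.1, H2B and canonical H2A were grouped as the replication-dependent set (25 probe sets), and H3.3, H2A.X, H2A.W and H2A.Z as the variants (11 probe sets). This grouping was made by whole class, and whether each single gene, such as the H2B gene AT1G08170, is of that type was not examined.

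Replication-dependent histones are made mainly in S phase, when newly copied DNA must be packaged, and their mRNAs are therefore marks of dividing cells. In animals such mRNAs end in a stem-loop without a poly(A) tail, whereas plant histone mRNAs are polyadenylated. Variant histones are deposited also outside S phase: H3.3 replaces H3.1 in transcribed genes, H2A.X is phosphorylated at DNA breaks, H2A.W marks plant heterochromatin, and H2A.Z sits at the first nucleosomes of genes and is known for its part in temperature and stress responses.

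The samples were mRNA from polysomes (PL) and mRNA outside polysomes (NP) of *eif3k* mutant and wild-type (WT) seedlings, with 3 replicates of each genotype and fraction, 12 arrays in all. The mutant carries a T-DNA of the GABI-KAT collection in the sixth and last intron of the eIF3k gene. eIF3k is a non-core part of eIF3, which brings the small ribosomal subunit to mRNA. The mutant is 1 insertion line, it still makes a transcript truncated at the 3′ end, no full-length transcript was detected, and it has no obvious phenotype. Both genotypes were in the Columbia ecotype and were grown on medium with sucrose, and aerial tissue was taken at 11 days. The PL sample pooled the bottom and the NP sample the top fractions of a sucrose gradient. For each replicate the translation state (TL) was taken as log2 PL signal minus log2 NP signal, and a higher TL means higher ribosome occupancy. All arrays were normalized together, so an mRNA with a TL of 0 is not necessarily divided evenly between PL and NP.

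Some features of the arrays bear on every value. Median log2 signals of the 12 arrays ranged from 3.25 to 3.49. The TL of WT replicate 3 correlated with that of the other 5 samples at only 0.297 to 0.362 across all probe sets, against 0.741 to 0.896 among those 5, and its PL array had an SD of 1.94, against 2.15 to 2.29 on the other 11 arrays. Over the histone probe sets the correlations were 0.534 to 0.594 and 0.818 to 0.936. These are correlations across genes, which are not independent, and results that rest on WT replicate 3 are given with and without it. Replicate 3 of both genotypes was assigned to a second array batch here. The sample titles do not name a batch, and what sets the 2 batches apart is not known here. Aerial tissue was checked with 9 leaf photosynthesis probe sets, whose median log2 signal ranged from 11.28 to 13.14 over the arrays, and 12 root probe sets, whose median was at the floor of 2.33 on every array, although 1 of them was bright. The EIF3K probe set gave log2 PL signals of 7.17, 7.06 and 7.63 in *eif3k* and 8.61, 8.89 and 7.28 in WT. Its log2 NP signals were 7.30, 7.93 and 8.05 in *eif3k* and 9.26, 9.45 and 9.01 in WT. The NP signals separated the genotypes and the PL signals did not, through WT replicate 3. Where this probe set lies relative to the insertion is not known here, so it is a limited check of the labels.

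Most histone mRNAs had a higher signal in PL than in NP in both genotypes. In the mean of both, 27 of 37 histone probe sets were called above 0, meaning a limma adjusted p under 0.05 and a mean TL of at least 1, that is a PL signal at least 2 times the NP signal, and 0 were called below 0. Of all probe sets tested, 3.68% were called above 0 and 4.66% below 0. At the adjusted p alone, 33 histone probe sets lay above 0, where 7.33% of all probe sets did, and 1 lay below 0, where 8.63% did. In 33 of 37 the TL was above 0 in all 6 samples, against 9.18% of all probe sets. The median TL of the histones was 1.36, whereas it was 0.00 over all probe sets. Many probe sets on the array are dim, so the histones were also set beside the 7182 probe sets with a mean log2 signal of at least 5, here called brighter. Of the 32 brighter histones, 25 were called above 0, against 9.55% of brighter probe sets, and 30 had a TL above 0 in all 6 samples, against 19.3%. The median of the brighter probe sets was -0.01. Within *eif3k* alone, 22 of 37 histone probe sets were called above 0 (2.18% of all probe sets), and within WT alone 24 were (2.01%). A block on the replicate number gave counts of 9 in *eif3k*, 10 in WT and 21 in the mean of both. With it 364, 394 and 1276 of all 22746 probe sets were called in either direction. The histone counts also depended on single replicates: 10, 1 and 9 were called in *eif3k* without *eif3k* replicate 1, 2 or 3 and 13 without WT replicate 2, and 5 and 1 were called in WT without WT replicate 1 or 2. In that order, 144, 41, 227, 410, 131 and 31 of all 22746 probe sets were called in either direction. Without replicate 1 of both genotypes, or without replicate 2 of both, 0 were called in any of these 3 tests, and in the mean of both genotypes limma then called 0 and 3 of all 22746 probe sets.

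**Figure D1:**
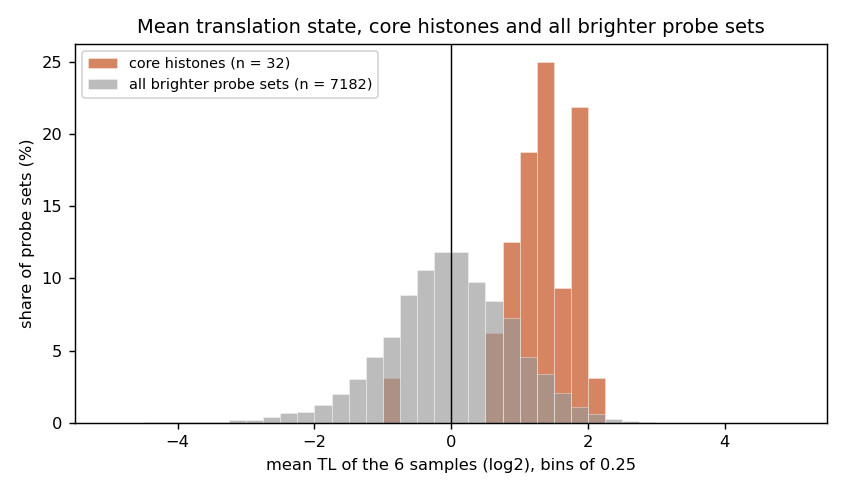
The horizontal axis is the mean TL of the 6 samples in log2, in bins of 0.25, and the vertical axis the share of probe sets in each bin in percent. Orange bars stand for the 32 brighter core histone probe sets and grey bars for all 7182 brighter probe sets. The histones lie mostly above 1, with 1 probe set, HTA9, below 0.

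The pattern held in each sample, as counts of probe sets. Between 23 and 26 of the 32 brighter histones had a TL of at least 1 in the *eif3k* samples, where 13.2% to 19.9% of all brighter probe sets did. In WT replicates 1 and 2 the count was 26 in each, beside 16.1% and 19.7%. In WT replicate 3 it was 22, beside 9.4%. The median TL of the 37 histones was 1.19, 1.39 and 1.31 in *eif3k* replicates 1 to 3 and 1.40, 1.52 and 1.26 in WT replicates 1 to 3. The same median over brighter probe sets was 0.11, 0.11 and 0.03 in *eif3k* and 0.05, 0.12 and -0.44 in WT. The histone medians therefore stayed near each other in all 6 samples, although the median of the brighter probe sets was lower in WT replicate 3. Over all 22746 probe sets, many of them at the floor, the median was 0.00 in each sample.

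**Figure D2:**
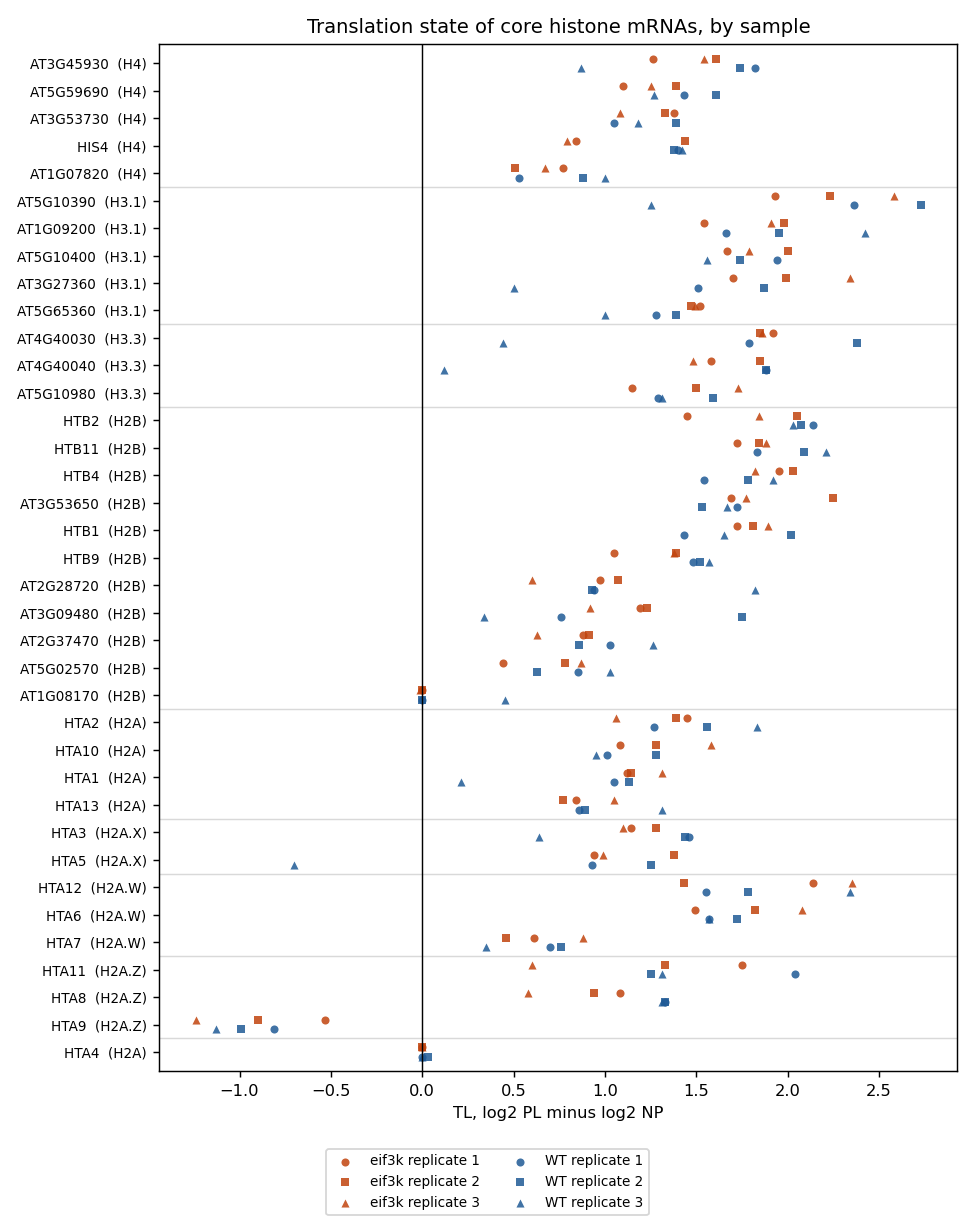
Each row is a core histone gene with its class, and the horizontal axis is TL, the log2 PL minus the log2 NP signal. Orange symbols are the 3 *eif3k* samples and blue symbols the 3 WT samples. Of 37 genes, 33 lie above 0 in all 6 samples and HTA9 lies below 0 in all 6.

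Histone H4 pairs with H3 in the nucleosome core, and its 5 probe sets had a median TL of 1.24 over the mean of both genotypes, with 4 of 5 called above 0. The brightest, AT5G59690, had TL values of 1.10, 1.39 and 1.25 in *eif3k* and 1.43, 1.61 and 1.27 in WT. Its mean over the 6 samples was 1.34, a ratio of PL to NP signal of 2.54 (adjusted p = 0.00187). AT3G45930 had the highest mean of the class, with 1.26, 1.61 and 1.54 in *eif3k* and 1.82, 1.74 and 0.87 in WT. AT1G07820 had the lowest, with 0.77, 0.51 and 0.67 in *eif3k* and 0.53, 0.88 and 1.00 in WT. All 3 lay above 0 in every sample, and AT1G07820 passed the adjusted p (0.00822, and 0.0548 with the block) but not the size of 1. The names of these 3 probe sets mark probes shared by several transcripts, so a value can include other H4 genes, and the other 2 H4 probe sets had means of 1.24 and 1.21.

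H3.1, the H3 form laid down at replication, had the highest class median, 1.78, and 5 of 5 probe sets called above 0, or 3 of 5 with the block. AT5G10390 had the highest mean TL of all histones. Its values were 1.93, 2.23 and 2.58 in *eif3k* and 2.36, 2.73 and 1.25 in WT, a mean of 2.18 and a ratio of 4.53. Its adjusted p was 0.00825, and 0.0553 with that block. AT5G65360, the brightest and also the lowest of the class in TL, had values of 1.52, 1.47 and 1.49 in *eif3k* and 1.28, 1.39 and 1.00 in WT. The remaining 3 had mean TL values of 1.65 to 1.91, and AT3G27360, the lowest of them, had an adjusted p of 0.0131, and 0.0727 with the block. AT5G10390 is next to AT5G10400, also an H3.1 gene, in the gene order.

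H3.3, the replication-independent form, had a median of 1.47 with 3 of 3 probe sets called above 0. AT4G40030 was both the brightest and the highest, with TL values of 1.92, 1.85 and 1.86 in *eif3k* and 1.79, 2.38 and 0.44 in WT. Its adjusted p was 0.0214, but 0.0713 with the replicate number as a block. AT4G40040, its neighbour in the gene order, had values of 1.58, 1.85 and 1.48 in *eif3k* and 1.88, 1.88 and 0.12 in WT. With the block its adjusted p was 0.0756, against 0.0341 without. The 2 neighbouring genes thus had a low TL in WT replicate 3 only. AT5G10980 lacked that low value, with 1.15, 1.50 and 1.73 in *eif3k* and 1.29, 1.59 and 1.31 in WT. It was called in each genotype, and AT4G40030 and AT4G40040 only in the mean of both, which rested on WT replicate 3 and on the fit. Without that sample both were called in each genotype, with adjusted p of 0.0135 in *eif3k* and 0.0222 in WT for AT4G40030 and 0.0104 in *eif3k* and 0.0164 in WT for AT4G40040. With the block AT5G10980 was called in neither genotype (adjusted p = 0.0580 in *eif3k* and 0.0603 in WT).

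H2B, which joins H2A in the outer dimers of the nucleosome, was the class with most members. Of its 11 probe sets, 8 were called above 0, with a median of 1.40. With the dim probe sets left out the H2B median was 1.75. HTB9, the brightest, had TL values of 1.05, 1.39 and 1.38 in *eif3k* and 1.48, 1.52 and 1.57 in WT. HTB2 was the highest, with 1.45, 2.05 and 1.84 in *eif3k* and 2.14, 2.07 and 2.03 in WT, a mean of 1.93 and a ratio of 3.81 (adjusted p = 0.00181). AT2G37470 was the lowest among brighter H2B probe sets, with 0.88, 0.91 and 0.63 in *eif3k* and 1.03, 0.86 and 1.26 in WT. It passed the adjusted p (0.00410) but not the size of 1. HTB1, HTB4 and HTB11 had means of 1.75 to 1.93. Of the 4 dim H2B probe sets, AT3G53650 and AT3G09480 were called above 0, with means of 1.77 and 1.03. AT3G09480 lost the call with the block (adjusted p = 0.0709, against 0.0359 without), as did the brighter AT2G28720 (0.0938, against 0.0176). The dim AT5G02570 had a mean of 0.77. AT1G08170 lay within 0.1 of the signal floor on 11 of 12 arrays, so its TL of about 0 is not a measurement of its ribosome occupancy.

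Canonical H2A had a median of 1.10, with 2 of 4 probe sets called above 0. HTA10, the brightest, had TL values of 1.08, 1.28 and 1.58 in *eif3k* and 1.01, 1.28 and 0.95 in WT. HTA2, the highest, had 1.45, 1.39 and 1.06 in *eif3k* and 1.27, 1.56 and 1.83 in WT. HTA13, the lowest, had 0.84, 0.77 and 1.05 in *eif3k* and 0.86, 0.89 and 1.31 in WT. HTA13 passed the adjusted p (0.00526) with a mean of 0.95, just under the size of 1. HTA1, known as RAT5 for its part in *Agrobacterium* transformation, missed that size by less, with a mean of 0.99. Its TL was 1.12, 1.14 and 1.31 in *eif3k* and 1.05, 1.13 and 0.21 in WT, so that WT replicate 3 was the low sample. Without that sample its mean was 1.14 and its adjusted p 0.00390, which is a call. With all 6 samples its adjusted p was 0.0165, and 0.0769 with the block.

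The H2A.X genes, HTA3 and HTA5, had a median of 0.99. HTA3, which was called above 0, had TL values of 1.14, 1.28 and 1.10 in *eif3k* and 1.46, 1.44 and 0.64 in WT. HTA5 had 0.94, 1.38 and 0.99 in *eif3k* and 0.93, 1.25 and -0.70 in WT. HTA5 was thus above 0 in 5 samples and below 0 in WT replicate 3, and its mean was 0.80 (adjusted p = 0.161) with that sample and 1.10 (adjusted p = 0.0111) without it. Its log2 PL signal was 7.23, 7.43 and 7.03 in *eif3k* and 7.01, 7.36 and 4.71 in WT. The fall in WT replicate 3 was therefore larger in PL than in NP, where HTA5 had 6.29, 6.05 and 6.04 in *eif3k* and 6.08, 6.11 and 5.41 in WT.

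The H2A.W genes had a median of 1.71, with HTA6 and HTA12 called above 0 and HTA7 past the adjusted p only (0.0142, and 0.0899 with the block). HTA6, the brightest, had TL values of 1.49, 1.82 and 2.08 in *eif3k* and 1.57, 1.72 and 1.57 in WT. HTA12 had 2.14, 1.43 and 2.35 in *eif3k* and 1.55, 1.78 and 2.34 in WT. HTA7 had 0.61, 0.46 and 0.88 in *eif3k* and 0.70, 0.76 and 0.35 in WT. HTA7 lay below both others in each of the 6 samples.

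H2A.Z was the class in which genes of the same variant had TL of opposite sign. HTA9 was the only histone with a TL below 0 in all 6 samples, and 25.5% of brighter probe sets were below 0 in all 6. Its values were -0.53, -0.90 and -1.24 in *eif3k* and -0.81, -0.99 and -1.13 in WT. The mean was -0.93, a ratio of PL to NP signal of 0.524, with an adjusted p of 0.00985 that missed the size of 1. HTA9 was the brightest H2A.Z probe set, far above the floor. Its log2 PL signal was 8.95, 9.25 and 9.00 in *eif3k* and 8.75, 8.91 and 8.19 in WT, and its log2 NP signal 9.48, 10.15 and 10.24 in *eif3k* and 9.56, 9.90 and 9.32 in WT. HTA11 had TL values of 1.75, 1.33 and 0.60 in *eif3k* and 2.04, 1.25 and 1.31 in WT. HTA8, singled out after its values were seen, had 1.08, 0.94 and 0.58 in *eif3k* and 1.33, 1.33 and 1.31 in WT. Both were called above 0 in the mean of both genotypes, with adjusted p of 0.0169 for HTA11 and 0.00323 for HTA8. The lowest TL of either (0.58) exceeded the highest TL of HTA9 (-0.53). This gap between H2A.Z genes was noticed in the data and was not tested. HTA4, an H2A gene not placed in a class, was within 0.1 of the floor on all 12 arrays, and its TL is not a measurement of ribosome occupancy.

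**Figure D3:**
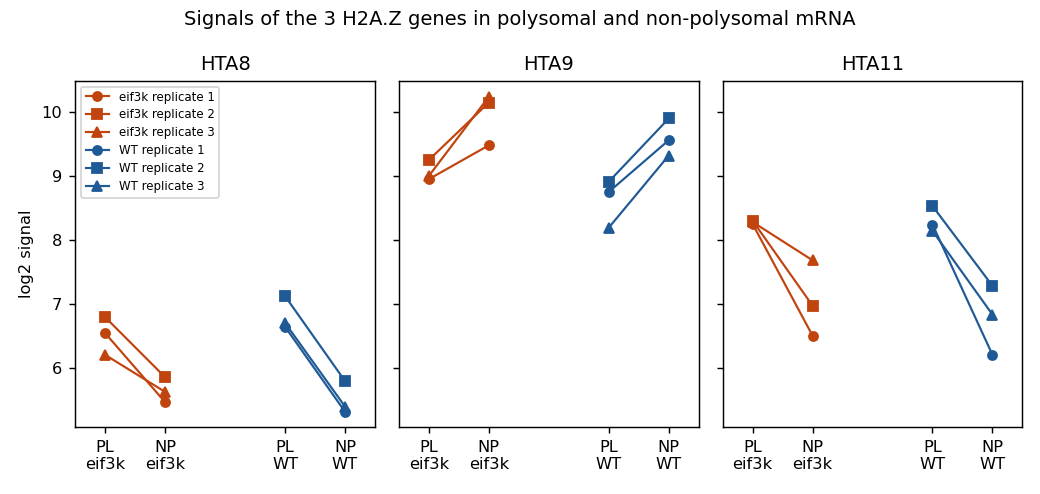
Each panel is an H2A.Z gene, the vertical axis is its log2 signal, and lines join the PL and NP arrays of a replicate, with *eif3k* in orange and WT in blue. Lines fall toward NP in HTA8 and HTA11 and climb toward NP in HTA9, in all 6 samples. Signals are compared within a gene, not between genes.

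Histone classes differed in how far WT replicate 3 departed from WT replicates 1 and 2. Over brighter probe sets the median departure in TL was -0.55. It was -1.65 for the 3 H3.3 probe sets and -1.30 for the 2 H2A.X probe sets, but 0.25 for the 11 H2B and 0.11 for the 4 canonical H2A probe sets. For H4 it was -0.04, for H3.1 -0.34, for H2A.W -0.08 and for H2A.Z -0.23. WT replicate 3 was the lowest of the 6 samples in 12 of 32 brighter histones, where this was so in 55.1% of brighter probe sets, and the highest in 8 of 32, where this was so in 17.9%. With the dim probe sets included, it was the highest in 6 of 11 H2B probe sets. Among these, AT1G08170 lay within 0.1 of the floor on 11 of 12 arrays, and AT5G02570 was dim. Over all 22746 probe sets, WT replicate 3 was the highest in 6212. The class medians in that sample therefore ranged from -0.03 for H2A.X and 0.44 for H3.3 to 1.65 for H2B. In the PL arrays AT4G40030 had log2 signals of 11.74, 11.84 and 11.93 in *eif3k* and 11.50, 11.76 and 10.82 in WT. In the NP arrays it had 9.82, 9.99 and 10.07 in *eif3k* and 9.71, 9.38 and 10.38 in WT. For this gene WT replicate 3 had the lowest PL and the highest NP signal of the 6 samples. What set this sample apart was not tested.

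**Figure D4:**
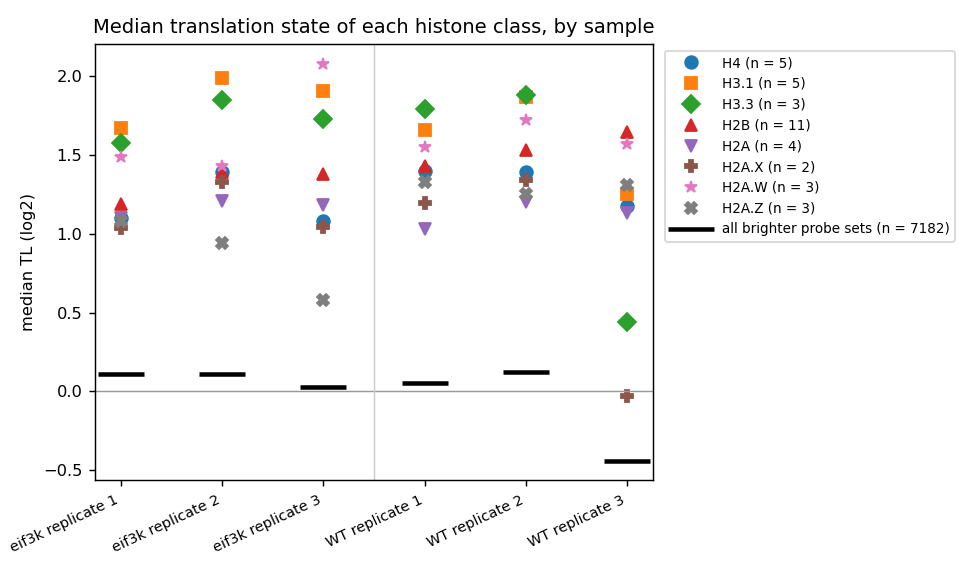
The horizontal axis gives the 6 samples, *eif3k* left of WT, and the vertical axis the median TL in log2, with a symbol for each histone class and a black bar for the median of all 7182 brighter probe sets. In WT replicate 3 the medians of H3.1 (1.25), H3.3 (0.44) and H2A.X (-0.03) lie below their values in the other samples. That of H2B (1.65) does not.

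The design asks whether loss of eIF3k alters the ribosome loading of particular mRNAs, and no histone was called in any comparison of *eif3k* with WT. In TL, 0 of 37 histone probe sets were called, with 0 of 22746 overall (0.0%), and the smallest adjusted p of a histone in limma was 0.823. In PL and in NP 0 were called as well (0.0% of all probe sets in both), with smallest adjusted p of 0.817 in PL and 0.876 in NP. Before adjustment, p was under 0.05 for 1 histone in TL (2.69% of all probe sets), 0 in PL (1.92%) and 0 in NP (3.17%). In whole-tissue RNA a difference in PL or NP signal could also come from another number of dividing cells, which cannot be told apart from a change of RNA per cell.

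The 1 histone was HTA8 of the H2A.Z class. Its mean TL was 0.87 ± 0.26 in *eif3k* and 1.32 ± 0.01 in WT (SD, n = 3 each), and its values did not overlap. The difference was -0.46 with a 95% interval of -0.83 to -0.09 before adjustment, and the adjusted p of limma was 0.823. HTB9 also lay lower in *eif3k* without overlap, and AT5G65360 lay higher. Of all probe sets, 2.44% lay lower in *eif3k* without overlap and 4.16% higher, so 2 and 1 of 37 are near that background. In PL, AT4G40040 and HTA9 lay higher in *eif3k* without overlap, where 4.56% of probe sets did. AT4G40040 had log2 PL signals of 11.41, 11.46 and 11.42 in *eif3k* and 11.28, 11.38 and 10.04 in WT, and its mean difference of 0.53 was 0.10 without WT replicate 3. In NP, HTA1 lay lower in *eif3k*, with 7.17, 7.19 and 6.47 against 7.32, 7.46 and 7.62 in WT, where 2.47% of probe sets did.

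The median TL difference (*eif3k* minus WT) over the 37 histones was 0.05, with 19 above 0 and 18 below 0. Over brighter probe sets it was 0.19, and quantile normalization of the arrays moved it to 0.03. The same step turned the histone median to -0.10, and centring each sample's TL on its median over brighter probe sets turned it to -0.13. Without WT replicate 3 the histone median was -0.04, with 15 above and 22 below, and that of brighter probe sets -0.01. Within array batch 1 (replicates 1 and 2) the histone median was -0.05. Within batch 2 (replicate 3, 1 sample per genotype) the histone median was 0.00, with 18 above and 18 below. That of brighter probe sets was 0.03 in batch 1 and 0.46 in batch 2. In PL the median difference of histones was 0.09 and in NP 0.13, with 25 and 28 of 37 above 0. Among brighter histones the difference was above 0 for 17 of 32 in TL, where 65.8% of brighter probe sets were, for 24 of 32 in PL (74.2%) and for 26 of 32 in NP (56.6%). Without WT replicate 3 the PL median was -0.02, with 15 above 0 and 21 below 0, and 13 of 32 brighter histones above 0. In PL 3578 of 7182 brighter probe sets then lay above 0, with a median of 0.00. Without WT replicate 3 the NP median was 0.00, with 18 above 0 and 17 below 0, and 16 of 32 brighter histones above 0. In NP 3644 of 7182 brighter probe sets then lay above 0. Within batches the histone PL median was 0.07 in batch 1 and 0.25 in batch 2, where that of brighter probe sets was 0.035 and 0.63. The histone NP median was 0.09 and 0.12, where that of brighter probe sets was 0.005 and 0.15. In NP 27 histones lay above 0 and 8 below 0 in batch 1, and 22 and 14 in batch 2. In PL 21 lay above 0 and 14 below 0 in batch 1, and 21 and 15 in batch 2. Without replicate 3 of both genotypes, 25 of 32 brighter histones and 3601 of 7182 brighter probe sets were above 0 in NP. What lies behind these NP counts was not tested.

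By class the median TL differences were -0.15 for H4, 0.13 for H3.1, 0.34 for H3.3, -0.15 for H2B, 0.05 for canonical H2A, 0.30 for H2A.X, 0.08 for H2A.W and -0.31 for H2A.Z. These medians moved with single samples. Without WT replicate 3 they were 0.01 for H3.1, -0.21 for H3.3, -0.06 for H2B, -0.13 for H2A.X, -0.27 for H4, 0.15 for H2A.W and -0.42 for H2A.Z. That of H2A.Z was 0.01 without *eif3k* replicate 3, -0.05 without WT replicate 1 and -0.56 without *eif3k* replicate 1, and that of canonical H2A was -0.02 without *eif3k* replicate 3, -0.01 without WT replicate 1 and 0.12 without *eif3k* replicate 1. Scaling moved them too: after quantile normalization H3.1 (-0.06), canonical H2A (-0.05) and H2A.W (-0.12) lay below 0, as they did after centring. No class median was tested. The H3.1 gene AT3G27360 had the most positive difference of a histone, 0.72, and it was 0.32 without WT replicate 3. Its TL was 1.70, 1.99 and 2.34 in *eif3k* and 1.51, 1.87 and 0.50 in WT. The precision was limited by 3 replicates. The 95% intervals of the TL difference in brighter histones reached between 0.287 and 1.54 to either side, with a median of 0.465, and 24 of 32 lay within -1 and 1. For those 24, a difference of 1 in log2 lay outside the interval, which is not adjusted for the number of genes. For the other 8, HTA5 and AT4G40030 among them, it did not.

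**Figure D5:**
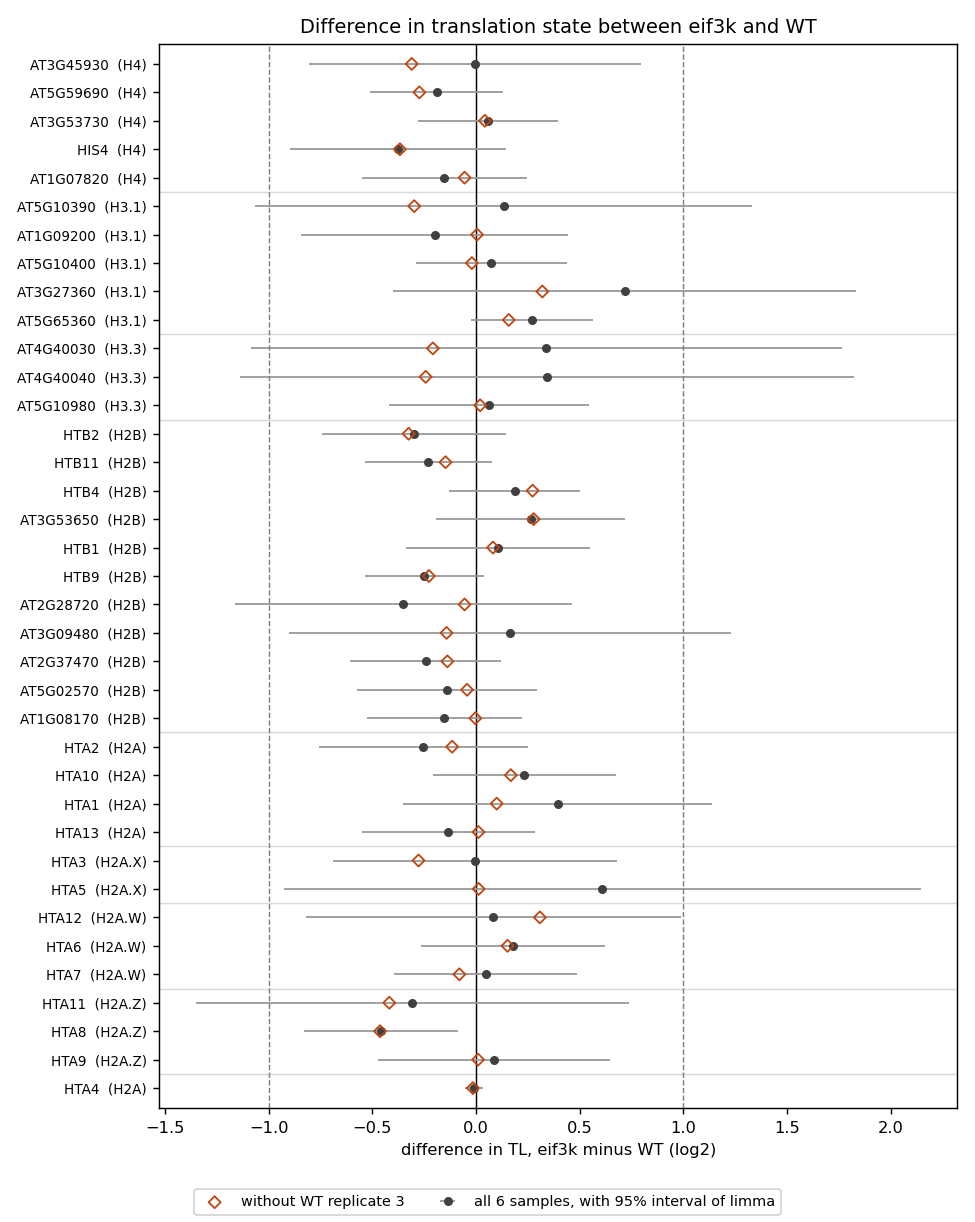
Each row is a core histone gene, and the horizontal axis is the TL of *eif3k* minus that of WT in log2. Dots with bars are the limma estimate over all 6 samples and its unadjusted 95% interval, diamonds the estimate without WT replicate 3, and dashed lines mark -1 and 1. The interval of HTA8 alone leaves out 0, and 8 of 37 genes, AT4G40030 and AT4G40040 among them, change side without WT replicate 3.

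Genes that work with the core histones or in the cell cycle were counted in the same way, beside the 3.68% of all probe sets called above 0 and the 4.66% called below 0. Linker histone H1, which binds DNA between nucleosomes, had a median TL of 0.59 with 0 of 3 probe sets called. Of 16 probe sets for histone chaperones and deposition factors, 0 were called above 0 and 3 below 0 with a median of 0.01. The 3 were the chaperones ASF1B, NAP1;1 and NAP1;3, named after their values were seen. Of 11 probe sets for S-phase and DNA replication genes 1 was called above 0, the polymerase clamp PCNA1, and the median was 0.52. Of 7 mitosis genes 2 were called above 0, SYP111 and CDKB1;2, with a median of 0.41. Only 10 of the 16 chaperone and deposition, 4 of the 11 S-phase and 1 of the 7 mitosis probe sets were among the brighter ones. Whether these lists differ from the core histones was not tested. In TL, PL and NP 0 of their probe sets were called between the genotypes (0.0% of all probe sets).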

How the data were processed

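The authors deposited a log2 signal for each probe set after background correction and normalization of the 12 arrays, and the log2 ratio of PL to NP signal of each replicate (TL). The processing notes name GCRMA and the methods of the study RMA, and the build behind the probe sets is not given in the sources used here. Day length is a long day in the labels and continuous light in the methods. The deposited TL equalled the difference of the signals within 0.01, so TL was computed as log2 PL minus log2 NP. Signals had a floor of 2.33. After 64 controls were left out, 22746 probe sets were tested with lmFit and eBayes of limma 3.58.1 (R 4.3.3), two-sided, and p-values were adjusted by Benjamini-Hochberg across this whole set. Calls needed an adjusted p under 0.05 and a log2 size of at least 1, after the methods of the study. One fit over 6 TL samples gave the contrasts against 0 and between genotypes, and PL and NP were fitted separately. The scripts were tested on simulated data. Prior degrees of freedom were 0.557 for TL, 0.441 for PL and 0.434 for NP.

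Members were probe sets whose locus identifier was on the list, and symbols came from the TAIR10.1 gene table, which held all 40 genes. No coordinates or sequences are given. Probe names mark 3 H4 probe sets that may hybridize to more than 1 transcript. Histone paralogs are similar in sequence, and cross-hybridization of the others was not examined. The members, classes and gene lists were chosen with earlier results of these data known. In each class, values are given in full for the probe set with the highest mean signal and for those with the highest and lowest mean TL among brighter ones, and others named are said to be so or given for WT replicate 3.

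Arrays have no read depth, and 3 replicates limit the precision. Labels number the replicates, and the spread behind the p-values is that among these samples, part of which may be technical. Same-numbered *eif3k* and WT samples deviated together from their group means. The 9 correlations across probe sets over TL, PL and NP were 0.134 to 0.268, all above 0.1. Equal numbers were therefore taken to mark pairs, but only the fits with the block used this. Such correlations can also come from the array batch that both replicate 3 samples share. The main fits had no block, so the calls of 27 (mean of both), 22 (*eif3k*) and 24 (WT) leave the pairing out. With the block, which was an alternative, they were 21, 9 and 10. Other alternatives were leaving out replicates, the array batch as a block, a filter on dim probe sets, quantile normalization, another prior, centred TL, separate fits, an interaction over 12 arrays, and the series table of the same log2 signals, which the authors deposited too. Limiting the classes to probe sets with a single locus changed nothing, since each has only 1. Plots used matplotlib 3.10.9.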

Additional observations from a re-analysis of the deposited data

How the results depend on the processing

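The 27 histones called above 0 in the mean of both genotypes became 20 to 28 when any 1 library pair was left out, 26 without replicate 3 of both genotypes, and 0 without replicate 1 or replicate 2 of both (range 0 to 28). Over all 22746 probe sets the main fit called 1896 in either direction. That number became 896 to 2473 without any 1 pair, 2194 without replicate 3 of both, and 0 and 3 without replicate 1 or 2 of both. The counts within a genotype were less stable. In *eif3k*, 22 became 9 with the replicate number as a block, 8 in a separate fit, and 0 to 25 when replicates were left out. In WT, 24 became 10 with the block, 0 in a separate fit, and 0 to 25 when replicates were left out. The separate fits called 301 of all 22746 probe sets in *eif3k* and 0 in WT, so the 0 in WT is not particular to histones. Without replicate 1 or replicate 2 of both, 0 of all probe sets were called within either genotype. Over all 22746 probe sets the block lowered the calls within *eif3k* from 1076 to 364 and within WT from 1100 to 394, and centring TL raised them to 2264 and 2089. When replicates were left out they were 0 to 1878 in *eif3k* and 0 to 1550 in WT. In the mean of both the block lowered them from 1896 to 1276. Between the genotypes 0 histones were called under every alternative run, where all comparisons called 0 or 1 probe set of the whole array.

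Of the named TL differences, that of HTA9 (0.09) was -0.063 after quantile normalization and -0.087 after centring, and -0.093 to 0.262 when replicates were left out. That of AT4G40030 (0.34) was -0.21 to 0.78, below 0 without WT replicate 3 or replicate 3 of both. That of HTA3 (-0.01) was -0.28 to 0.15. For each the cause was not tested. HTA9 reached the size of 1 against 0 after quantile normalization (-1.002), without *eif3k* replicate 1 (-1.023) and without replicate 1 of both genotypes. Of 822 values for 50 results, 735 kept their direction and side of the threshold or moved by less than the replicate spread. Part of these could not move, since the series table held the same signals and each probe set had a single locus. The blocks, the other prior and the interaction also left the medians as they were. The count of 735 is therefore no measure of stability. Leaving out the H4 probe sets that may hybridize to more than 1 transcript was chosen after seeing the data.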
